A study of Mus musculus with 6 samples.

Results

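The genes described here were 43 genes of cholesterol synthesis and of fatty acid and glycerolipid synthesis, read in bone marrow-derived dendritic cells (BMDCs) with and without recombinant IL-4 (rIL-4). They were taken by gene symbol from a list of pathway enzymes and their regulators. Of these, 22 genes were on the cholesterol side and 21 on the fatty acid and glycerolipid side. The rule itself used no measured value other than detection, but the list was chosen with earlier results of these data known. A probe was used where the detection p-value was under 0.05 on at least 3 of 6 arrays; this value asks if a probe is brighter than the array's negative control beads. By that rule 34 of the 43 genes were measured, by 50 probes, out of 8921 genes and 16071 probes on the array as a whole. These were 18 cholesterol genes and 16 fatty acid and glycerolipid genes. *Acat2*, *Hmgcs1*, *Fdft1*, *Acaca*, *Oxsm*, *Elovl7*, *Acsl1* and *Gpam* had no probe under these symbols in the annotation used and were not analysed here. The only probe of *Sc5d*, the sterol C5 desaturase, was detected on 2 arrays and was not tested.

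All samples were BMDCs of male C57BL/6 mice, grown for 10 days with 20 ng/ml GM-CSF and then held at 5 ng/ml GM-CSF for 6 h, so that control cells also had GM-CSF throughout. The 3 IL-4 samples had 20 ng/ml rIL-4 in those 6 h and the 3 control samples had none. Marrow came from 3 mice and was cultured separately for each, and RNA of the whole harvest was read on Illumina MouseWG-6 arrays with no sorting of cells. Levels are log2 bead signals after background correction and quantile normalization, and a log2 fold change is the IL-4 mean minus the control mean on that scale. The lowest level at which a probe was detected lay between 4.63 and 4.79 on the 6 arrays, and levels below it have no order. A gene with more than 1 probe is given by its brightest probe (highest mean level). The p-values of the unpaired comparison rest on the spread between cultures of 1 condition. Those of the blocked comparison, described below, rest on how much the IL-4 minus control difference varied from pair to pair. In both, limma draws the spread of each probe towards a value shared by all probes. The blocked fit leans on that shared value more, with 2 residual degrees of freedom against 4 in the unpaired fit. With so few arrays every value is of limited precision.

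Cholesterol is built from acetyl-CoA through the mevalonate pathway to farnesyl diphosphate, which squalene synthase commits to sterols. Squalene is then oxidised, closed to lanosterol and trimmed to cholesterol in the endoplasmic reticulum. When membrane sterol is low, the transcription factor SREBP-2 is carried to the Golgi and released there, and it switches on most genes of the pathway, while INSIG proteins and oxysterols hold it back. Fatty acids are built by acetyl-CoA carboxylase and fatty acid synthase, then elongated, desaturated, activated to acyl-CoA and joined to glycerol, with SREBP-1c as a main regulator. In dendritic cells and macrophages these lipids supply membrane for endosomes and for antigen handling, and oxysterols act as signals between immune cells.

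No gene of either pathway passed the test. In the unpaired comparison of the IL-4 and control arrays with limma, 0 of the 34 genes had an adjusted p under 0.05 in either direction, where 0.123% of all 8921 genes were called higher and 0% lower. The lowest adjusted p of these genes was 0.358, for *Ch25h*. By the unadjusted p under 0.05, 3 genes were higher with rIL-4 (*Cyp51*, *Dhcr7* and *Ch25h*), or 8.82% against 4.26% of all genes, and 2 were lower (*Fads1* and *Acsl4*), or 5.88% against 4.13%. Since arrays of 1 number shared deviations from their group means, a second limma fit took that number as a block. It called 1.65% of all genes higher and 1.01% lower and again 0 of the 34. The lowest adjusted p in the blocked fit were 0.0554 for *Ch25h* and 0.0604 for *Cyp51*. By its unadjusted p under 0.05, 5 genes were higher (*Sqle*, *Lss*, *Cyp51*, *Dhcr7* and *Ch25h*, 14.7% against 7.20% of all genes) and 3 lower (*Fads1*, *Acsl4* and *Dgat1*, 8.82% against 7.91%).

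Counted without a test, the IL-4 arrays all lay above the control arrays for *Idi1*, *Ch25h*, *Scd2* and *Agpat3* (4 of 34, 11.8%, against 6.29% of all genes). By normalized level they all lay below for *Fads1*, *Acsl4* and *Srebf1* (3 of 34, 8.82%, against 7.08%). *Srebf1* was detected on 3 arrays only, so its order is not settled, here and in the counts within pairs, and 2 of 34 (5.88%) remain without it. *Agpat3* also lay near the detection limit and was not detected on control replicate 1. Its highest control level (4.77) and lowest IL-4 level (4.80) were nearly equal. Within pairs of the same number, 9 genes were higher with rIL-4 in all 3 pairs (26.5% against 16.4% of all genes), of which 6 were cholesterol genes. The 9 include *Agpat3* and *Fads2*, which was likewise near the detection limit and not detected on control replicate 3. In all 3 pairs 4 genes were lower (11.8% against 20.0%), and all of these were on the fatty acid and glycerolipid side. The median log2 fold change was 0.17 over the 18 cholesterol genes, with 13 above 0, and -0.015 over the 16 fatty acid and glycerolipid genes, with 8 above 0. Over all genes it was -0.015. Within pairs 1, 2 and 3 the cholesterol median was 0.20, 0.15 and 0.065. On the authors' own normalized values it was 0.093.

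**Figure D1:**
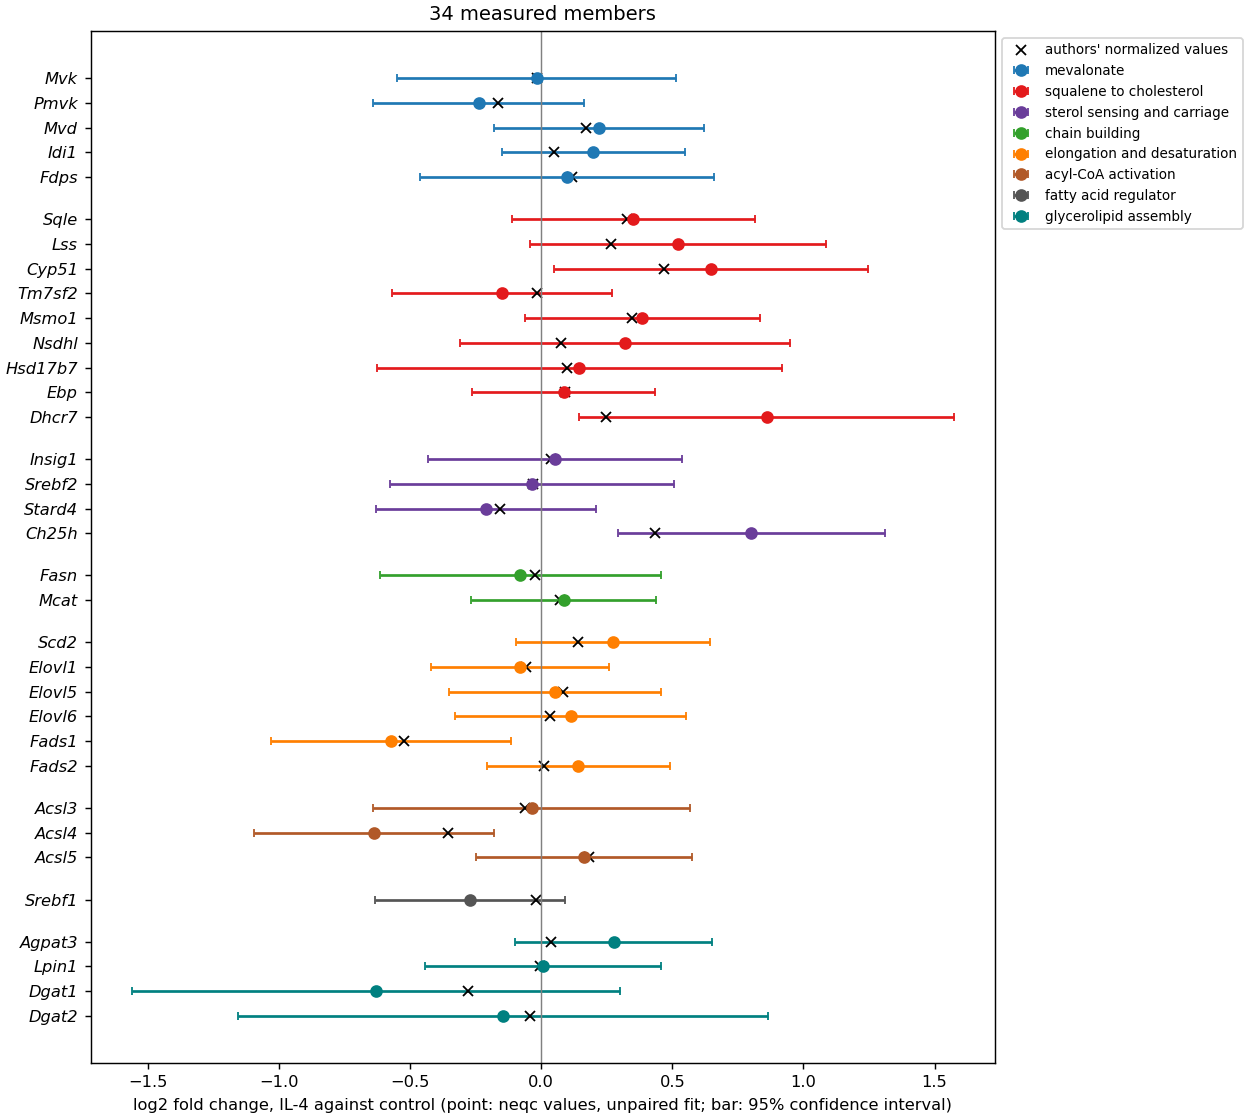
Log2 fold change of IL-4 against control (horizontal axis) for the 34 measured genes, by role in the pathway. Points are values from background-corrected, quantile-normalized signals, bars are 95% confidence intervals of the unpaired fit, and crosses are the values from the authors' normalization. The interval leaves out 0 for *Cyp51*, *Dhcr7* and *Ch25h* on the higher side and for *Fads1* and *Acsl4* on the lower side, before any adjustment for the number of probes.

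Replicate 2 stood apart from the other pairs in markers of other cell types, in both of its arrays. The summed normalized signal (linear scale) of 13 measured neutrophil genes of 15 listed was 34072 and 34588 on its control and IL-4 arrays, the highest of their groups, which ran from 9081 and from 7778. The sum of 4 measured mast cell and basophil genes of 9 listed was 6371 and 5543, again the highest, against group minima of 415 and 401. For 12 measured macrophage and monocyte genes of 15 listed, replicate 2 had the lowest sums, 7007 and 6451, where the groups reached 10724 and 9176. The 10 measured dendritic cell genes of 13 listed summed to between 47539 and 52062 on all 6 arrays, with replicate 2 the lowest of each group (47982 and 47539), and the defining markers *Cd74* and *Itgax* were detected on each. Of the defining markers of the other types, *Ngp* and *Ltf* (neutrophils), *Cpa3* (mast cells) and *Adgre1* (macrophages) were all above 6 on every array. Single genes ran against the sum of their list. *Adgre1* was highest in replicate 2 (10.9 without and 10.7 with rIL-4), where the other 4 arrays lay between 9.37 and 10.1. *Zbtb46* (dendritic cells) was also highest in replicate 2, in both conditions. *Kit* (mast cells) and *Mmp8* (neutrophils) were lowest there, with *Mmp8* near the detection limit at 4.72 in both. *Apoe* (macrophages) was detected on 4 arrays, the replicate 2 arrays at 4.25 and 4.50 not among them, and *Ms4a2* (mast cells) was not among the measured genes. Replicate 2 lay above the other 4 arrays in both of its arrays for *Insig1* and *Dgat2* (2 of 34, 5.88%, against 10.3% of all genes) and below them for 0 (against 12.1%). Between IL-4 and control, the median log2 fold change was 0.029 for the dendritic cell list, -0.031 for neutrophils, -0.24 for mast cells and basophils and -0.23 for macrophages and monocytes. With the block, *Irf4*, *Cxcr2* and *Mrc1* of these lists passed as higher and *Mmp9* and *Cd14* as lower. *Cxcr2* also passed in the unpaired fit (log2 fold change 3.0, adjusted p = 0.00939 in limma), and the others did not. With the block on the authors' normalized values none of these passed, since limma called 0 of 15888 probes there (2154 at an unadjusted p under 0.05). In RNA of a whole culture, fewer cells of a type and less RNA per cell cannot be told apart. The part of these cell types in the values below was not tested.

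The 5 measured genes of the mevalonate steps had a median log2 fold change of 0.097, with values from -0.24 to 0.22, and none had an unadjusted p under 0.05 in either fit. *Mvk*, mevalonate kinase, was at -0.018 (95% interval -0.55 to 0.51) and was detected on 3 arrays only. *Pmvk*, phosphomevalonate kinase, was at -0.24 (-0.64 to 0.16), and *Mvd*, the decarboxylase that makes isopentenyl diphosphate, was at 0.22 (-0.18 to 0.62). *Fdps*, farnesyl diphosphate synthase, was at 0.097 (-0.46 to 0.66), and its dimmer probe at -0.039.

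*Idi1*, the isomerase that balances both isoprene building blocks, was the only gene of this stretch with groups that did not overlap. Control replicates 1, 2 and 3 read 5.31, 5.48 and 5.21, and IL-4 replicates 1, 2 and 3 read 5.48, 5.54 and 5.57. The highest control array and the lowest IL-4 array were nearly level. The difference was 0.20 (95% interval -0.15 to 0.55, adjusted p = 0.916 in limma).

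The steps from squalene to cholesterol held the larger differences. Of 9 measured genes, 8 had a log2 fold change above 0, and the median was 0.35, or 0.25 on the authors' normalized values. Within pairs 1, 2 and 3 the median was 0.62, 0.025 and 0.29, with 8, 5 and 8 of the 9 genes higher with rIL-4. The share of all genes that was higher in the same pairs was 49.6%, 46.6% and 48.3%. Replicate 2 thus had the smallest median of the 3 pairs in these steps. It had the largest in the mevalonate steps (0.12, 0.36 and -0.068 in pairs 1, 2 and 3). The same held for the genes of sterol sensing and carriage (-0.19, 0.27 and -0.077). None of the 9 genes had groups that did not overlap (against 6.29% of all genes with IL-4 higher and 7.08% lower), and 4 were higher in all 3 pairs (*Sqle*, *Cyp51*, *Msmo1* and *Nsdhl*, 44.4% against 16.4% of all genes).

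*Cyp51*, the lanosterol 14-alpha-demethylase, was at 6.47, 6.56 and 7.08 in control replicates 1, 2 and 3 and at 7.24, 6.94 and 7.88 in the IL-4 replicates, in the order used for every gene below. Each IL-4 array was above the control array of its own number, by 0.77, 0.38 and 0.80. The groups overlapped, because control replicate 3 was above IL-4 replicate 2. IL-4 cells had a log2 fold change of 0.65 (SE 0.26, 95% interval 0.050 to 1.24), a 1.57-fold higher mean. In limma the adjusted p was 0.656 in the unpaired fit and 0.0604 with the block, for a standard error of 0.16.

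*Dhcr7*, the reductase of the last step to cholesterol, lay close to the detection limit on the control arrays, at 4.47, 4.83 and 4.82. With rIL-4 it was at 5.97, 4.75 and 5.99. The probe was not detected on control replicate 1 or on IL-4 replicate 2. Replicates 1 and 3 were thus higher with rIL-4, by 1.49 and 1.17, and replicate 2 was level at -0.085. The mean difference was 0.86 (SE 0.32, 95% interval 0.15 to 1.57), with an adjusted p of 0.574 in limma and 0.115 with the block. On the authors' normalized values it was 0.25.

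*Lss*, lanosterol synthase, closes oxidised squalene to lanosterol. It read 5.58, 6.34 and 6.16 in control cells and 6.43, 6.26 and 6.95 with rIL-4. As for *Dhcr7*, replicates 1 and 3 were higher with rIL-4 (0.85 and 0.79) and replicate 2 was not (-0.080). The log2 fold change was 0.52 (SE 0.25, 95% interval -0.045 to 1.09), with an adjusted p of 0.731 in limma and 0.244 with the block.

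*Sqle*, squalene epoxidase, is the oxygen-using step before *Lss* and a known control point of the pathway. Its brighter probe read 8.48, 8.43 and 8.83 without and 9.10, 8.58 and 9.12 with rIL-4. All 3 pairs were higher with rIL-4, by 0.62, 0.14 and 0.29, and the groups overlapped. The mean difference was 0.35 (SE 0.20, adjusted p = 0.832 in limma, 0.368 with the block). The dimmer probe read 5.02, 5.47 and 5.88 without and 6.28, 5.63 and 6.48 with rIL-4. Its difference was larger, at 0.67 (SE 0.28), and its adjusted p was 0.656, or 0.128 with the block.

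Of the other 5 genes of this stretch, none had an unadjusted p under 0.05 in either fit. *Msmo1*, the methylsterol monooxygenase, came nearest, at 0.39 (95% interval -0.063 to 0.83), with pair differences of 0.30, 0.025 and 0.84. *Nsdhl*, a dehydrogenase of the same demethylation, was at 0.32, and its other probes at 0.22 and 0.13. *Hsd17b7*, which reduces the ketone left by that step, was at 0.15, *Ebp*, the sterol isomerase, at 0.085, and *Tm7sf2*, a sterol C14 reductase, at -0.15.

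**Figure D2:**
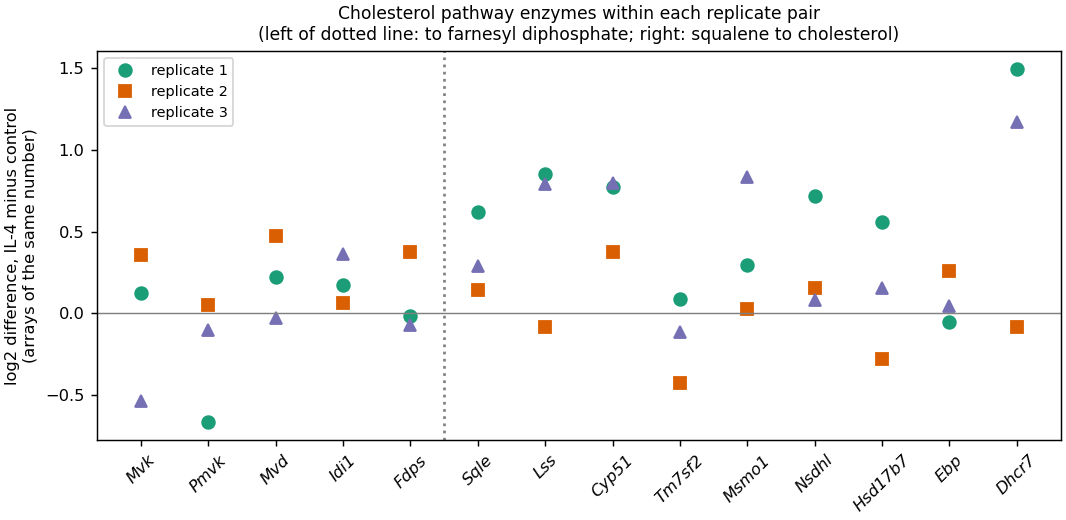
Difference between the IL-4 and the control array of the same number (vertical axis, log2) for the 14 measured enzymes of cholesterol synthesis, in pathway order; the dotted line parts the mevalonate steps from the squalene-to-cholesterol steps. In replicates 1 and 3, 8 of the 9 genes right of the line are above 0, and in replicate 2, 5 of them.

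Of the 4 measured genes that sense, carry or modify sterols, *Ch25h* had the largest difference. It encodes cholesterol 25-hydroxylase, which makes 25-hydroxycholesterol, an oxysterol that restrains SREBP-2 processing and is the precursor of a chemoattractant for EBI2-bearing cells. The control levels were 5.73, 5.88 and 5.74 and the IL-4 levels 6.98, 6.10 and 6.69. All IL-4 arrays were above all control arrays, with replicate 2 again the smallest difference (0.22, against 1.24 and 0.94). The log2 fold change was 0.80 (SE 0.23, 95% interval 0.29 to 1.31), a 1.74-fold higher mean. The adjusted p in limma was 0.358 in the unpaired fit and 0.0554 with the block, and on the authors' normalized values the difference was 0.43.

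*Srebf2*, which encodes SREBP-2, was at 7.97, 7.93 and 7.96 in control cells and at 7.74, 8.48 and 7.53 with rIL-4. Its control arrays were nearly level, and its IL-4 arrays spread to both sides of them, with a difference of 0.55 in replicate 2 and of -0.23 and -0.43 in replicates 1 and 3. The mean difference was -0.036 (95% interval -0.58 to 0.50), and 0.099 by the other probe.

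*Insig1*, which retains SREBP in the endoplasmic reticulum and is itself a target of SREBP-2, was at 6.71, 7.02 and 6.89 without and 6.57, 7.33 and 6.88 with rIL-4. The groups overlapped and the log2 fold change was 0.054 (95% interval -0.43 to 0.54). Its other probes were at 0.29, with pair differences of 0.43, 0.093 and 0.35, and at 0.10, with 0.25, -0.062 and 0.13. *Stard4*, a soluble carrier of cholesterol, was at -0.21 (-0.63 to 0.21).

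The promoters of the members were read from RefSeq on GRCm38.p6, as windows from 250 bases before to 50 bases after the annotated start, and 34 of the 43 genes had a window. They were searched on both strands for CCAAT, the letters of the box bound by NF-Y, which commonly works beside SREBP at sterol genes. CCAAT was found in 13 of 15 windows of cholesterol pathway enzymes (86.7%), in 7 of 16 windows of fatty acid and glycerolipid genes (43.8%) and in 38.0% of all 27025 windows. A sterol regulatory element searched as TCACNCCAC was found in 1 of 34 windows, that of *Hmgcs1*, against 1.22% of all windows, and the E-box CACGTG in 4 of 34 against 7.24%. The canonical STAT6 site, the TTC and GAA parted by 4 bases, was found in 1 of 34 windows, that of *Lpin1*, against 7.0%. These are matches of letters in 1 window for each gene, and were not tested as sites. The windows of *Cyp51*, *Lss*, *Dhcr7* and *Ch25h* are shown because their log2 fold changes were over 0.5 (an order that other processing changes, *Dhcr7* most), 5′ to 3′ on the strand of the gene, with CCAAT or its reverse complement in capitals. They lie at chr5:4104648-4104947 (minus strand) for *Cyp51*, chr10:76531355-76531654 (plus strand) for *Lss*, chr7:143822917-143823216 (plus strand) for *Dhcr7* and chr19:34475099-34475398 (minus strand) for *Ch25h*.
Cyp51: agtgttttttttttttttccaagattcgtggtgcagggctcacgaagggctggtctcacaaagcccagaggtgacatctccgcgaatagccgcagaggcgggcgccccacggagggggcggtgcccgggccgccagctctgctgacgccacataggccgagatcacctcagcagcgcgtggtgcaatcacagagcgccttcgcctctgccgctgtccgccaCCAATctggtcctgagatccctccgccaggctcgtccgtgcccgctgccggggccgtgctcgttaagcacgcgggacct
Lss: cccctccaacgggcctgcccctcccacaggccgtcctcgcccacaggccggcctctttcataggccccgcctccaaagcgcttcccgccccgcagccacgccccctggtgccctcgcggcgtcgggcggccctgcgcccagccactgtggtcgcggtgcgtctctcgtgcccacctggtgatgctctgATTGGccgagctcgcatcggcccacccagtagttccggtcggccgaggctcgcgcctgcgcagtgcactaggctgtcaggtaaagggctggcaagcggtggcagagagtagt
Dhcr7: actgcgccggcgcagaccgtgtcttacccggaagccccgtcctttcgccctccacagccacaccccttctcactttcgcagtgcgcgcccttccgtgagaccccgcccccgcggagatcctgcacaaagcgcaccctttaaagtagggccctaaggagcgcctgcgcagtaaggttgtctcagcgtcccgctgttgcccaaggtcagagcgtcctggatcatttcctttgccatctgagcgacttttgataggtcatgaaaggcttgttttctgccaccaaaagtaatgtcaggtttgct
Ch25h: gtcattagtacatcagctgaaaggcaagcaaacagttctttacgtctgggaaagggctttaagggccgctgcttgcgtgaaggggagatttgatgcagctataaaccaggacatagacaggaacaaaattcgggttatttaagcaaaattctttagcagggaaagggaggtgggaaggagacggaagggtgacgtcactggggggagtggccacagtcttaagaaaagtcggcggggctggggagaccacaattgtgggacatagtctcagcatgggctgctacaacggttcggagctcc
The box starts 29 bases before the annotated start in *Cyp51* and 62 bases before it, on the other strand, in *Lss*. The windows of *Dhcr7* and *Ch25h* held none.

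On the fatty acid and glycerolipid side, the largest differences were on the lower side. *Fads1*, the delta-5 desaturase that makes arachidonic and eicosapentaenoic acid, had control levels of 9.34, 9.45 and 9.37 and IL-4 levels of 8.80, 8.45 and 9.18. All IL-4 arrays were below all control arrays, and the pair differences were -0.54, -1.0 and -0.18. Here replicate 2 had the largest difference of the 3 pairs. The log2 fold change was -0.57 (SE 0.20, 95% interval -1.03 to -0.12), with an adjusted p of 0.543 in limma and 0.147 with the block. Normalization moved it little (-0.52 on the authors' values).

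*Acsl4*, the acyl-CoA synthetase that prefers arachidonic acid, was at 6.79, 6.42 and 6.40 in control cells and at 5.63, 6.22 and 5.84 with rIL-4. The groups did not overlap, and the pair differences were -1.15, -0.19 and -0.56. This gave a log2 fold change of -0.64 (SE 0.20, 95% interval -1.09 to -0.18), with an adjusted p of 0.479 in limma and 0.128 with the block. A dimmer probe of *Acsl4* gave -0.24 (95% interval -0.73 to 0.25), and its groups overlapped. The related synthetases *Acsl3* and *Acsl5* were at -0.036 and 0.16.

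*Dgat1*, which joins the last acyl chain to make triacylglycerol, spread within each condition (SD 0.67 and 0.76 on the log2 scale, n = 3) by more than the conditions differed. Its control levels were 6.47, 6.64 and 5.40 and its IL-4 levels 5.25, 6.41 and 4.96. Each IL-4 array was below the control array of its number, by differences of -1.22, -0.23 and -0.44, and the groups overlapped. Its log2 fold change was -0.63, and the standard error was 0.41 in the unpaired fit and 0.19 with the block (adjusted p = 0.868 and 0.142 in limma). *Dgat2*, an unrelated enzyme of the same step, was at 5.41, 6.57 and 5.33 without and 5.18, 6.63 and 5.07 with rIL-4. Both replicate 2 arrays were more than 1 log2 unit above the others, and the log2 fold change was -0.15 (95% interval -1.16 to 0.87).

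*Srebf1*, which encodes SREBP-1, lay at the detection limit. Its control levels were 4.74, 4.79 and 4.88 and its IL-4 levels 4.69, 4.36 and 4.54, with detection on 2 control arrays and 1 IL-4 array. Since control replicate 1 and IL-4 replicates 2 and 3 were not detected, the order of its arrays is not settled, although each IL-4 value was below each control value. The difference was -0.27 (95% interval -0.63 to 0.093) and -0.021 on the authors' normalized values.

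The remaining fatty acid and glycerolipid genes had log2 fold changes between -0.081 and 0.28. *Fasn*, fatty acid synthase, was at -0.080 (95% interval -0.62 to 0.46), and *Mcat*, the malonyl transferase of the mitochondrial route, at 0.086 by its brightest probe. The *Fasn* probe lay near the detection limit and was not detected on IL-4 replicate 3, at 4.41, so its difference is uncertain. *Scd2*, a stearoyl-CoA desaturase, was at 0.27 (-0.097 to 0.64), with control levels from 5.92 to 6.29 and IL-4 levels from 6.30 to 6.39. *Fads2*, the delta-6 desaturase, was at 0.14 (-0.21 to 0.49), so it did not share the sign of *Fads1*; the difference between them was not tested. The elongases *Elovl1*, *Elovl5* and *Elovl6* were at -0.081, 0.052 and 0.11. Probes of 1 gene did not always share a sign, with the other *Elovl1* probes at 0.081, 0.10 and 0.35, those of *Mcat* at 0.39 and -0.034 and those of *Acsl5* at 0.37 and -0.20. The counts of genes above rest on the brightest probes and leave these out. By the *Elovl1* probe at 0.35, all IL-4 arrays lay above all control arrays. The *Mcat* probe at 0.39 had an unadjusted p of 0.0484 with the block in limma. *Agpat3*, an acyltransferase of phospholipid synthesis, was at 0.28 (-0.099 to 0.65), and *Lpin1*, a phosphatidate phosphatase, at 0.0054 (-0.45 to 0.46).

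**Figure D3:**
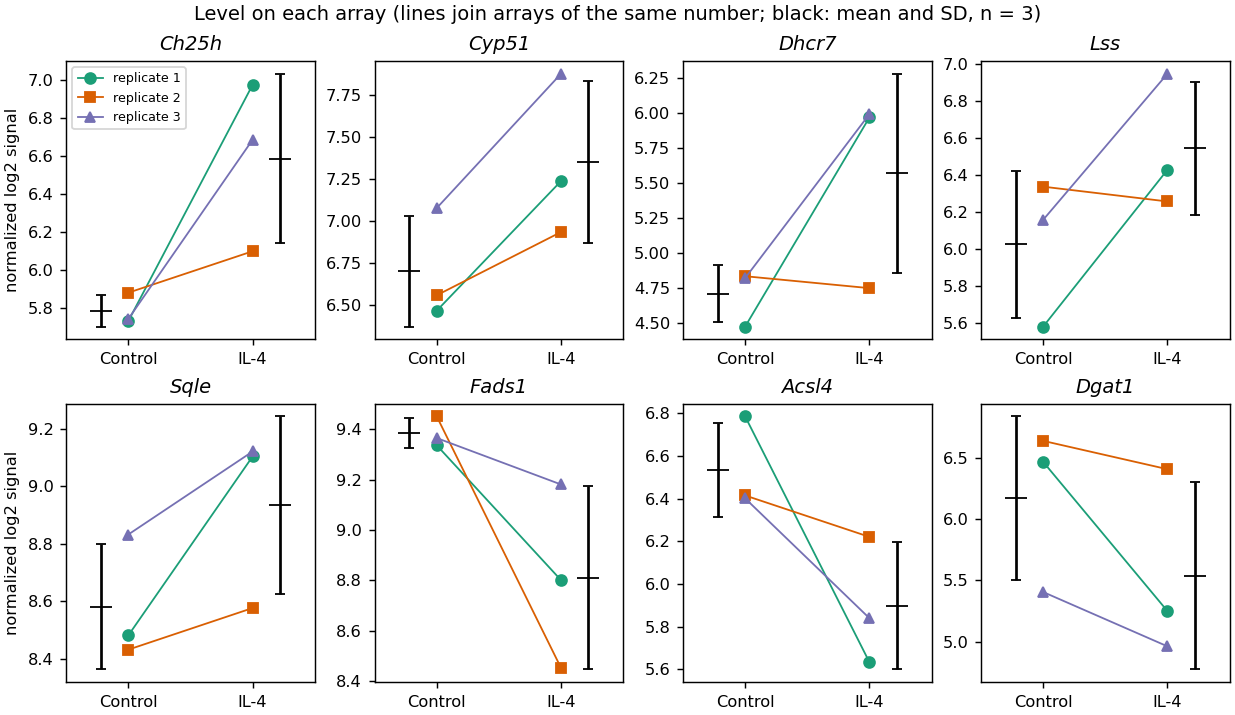
Normalized log2 signal (vertical axis) on every array for the 8 genes whose brightest probe had an unadjusted p under 0.05 in either fit. The range of the axis is set for each gene and does not start at 0. Coloured lines join the control and IL-4 arrays of the same number, and black marks give the mean and SD of 3 arrays. The line of replicate 2 is the flattest in 7 of the 8 genes and the steepest in *Fads1*.

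Leaving out the pair of replicate 2, a comparison added after the values were seen, changed the calls. In the fit with the block on replicates 1 and 3, with 1 residual degree of freedom, 4 of the 34 genes passed as higher (11.8%, against 3.64% of all genes) and 2 as lower (5.88%, against 2.29%). *Ch25h* was higher by 1.09 (adjusted p = 0.00355 in limma), *Lss* by 0.82 (0.0160) and *Cyp51* by 0.78 (0.0199). The standard error was 0.169 for both *Lss* and *Cyp51*, set mostly by the value shared by all probes. *Dhcr7* was higher by 1.33 (adjusted p = 9.23e-04 in limma), but its probe was not detected on control replicate 1, so the size of this difference and its p are uncertain. *Acsl4* was at -0.86 (adjusted p = 0.0222 in limma) and *Dgat1* at -0.83 (0.0339). The dimmer probe of *Acsl4* did not pass, at -0.12 (adjusted p = 0.745 in limma). The dimmer probe of *Sqle* also passed, at 0.93 (adjusted p = 0.0163 in limma), and the brighter did not (0.158). *Fads1* did not pass, at -0.36 (adjusted p = 0.261 in limma). Without replicate 1 or without replicate 3, the same fit called 0 of the 34 genes, with lowest adjusted p of 0.162 and 0.0915 in limma, both for *Fads1*. Over all 16071 probes tested, the fits without replicates 1, 2 and 3 called 348, 842 and 266 probes. Whether the marker levels of replicate 2 had a part in this was not tested.

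The size of most differences depended on the processing of the signals. All 8 genes whose brightest probe had an unadjusted p under 0.05 kept their direction in the authors' values and were smaller there. The gap was widest for *Dhcr7* (0.86 against 0.25), whose levels were near the detection limit, and small for *Sqle* (0.35 against 0.33) and *Fads1* (-0.57 against -0.52), whose levels were well above it. The authors' values differ in background handling, transformation and normalization together. Leaving out the background correction alone gave 0.28 for *Dhcr7*, 0.37 for *Ch25h*, 0.39 for *Cyp51* and 0.24 for *Lss*. The same setting gave -0.29 for *Acsl4*, -0.24 for *Dgat1*, 0.29 for *Sqle* and -0.49 for *Fads1*.

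**Figure D4:**
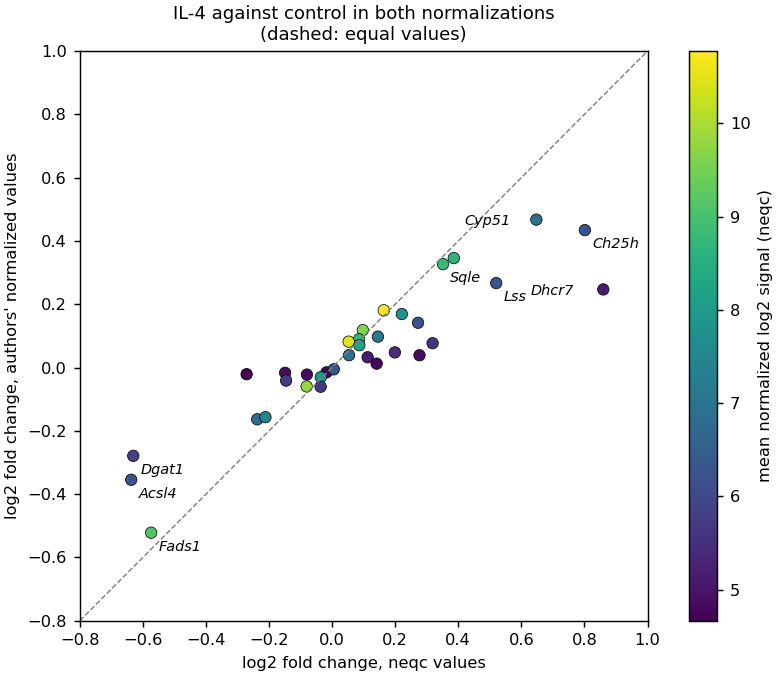
Log2 fold change of the 34 genes from background-corrected, quantile-normalized signals (horizontal axis) and from the authors' normalized values (vertical axis), coloured by mean normalized log2 signal. The dashed line marks equal values; *Dhcr7*, *Ch25h*, *Lss*, *Acsl4* and *Dgat1* lie nearer to 0 on the vertical axis, while *Sqle* and *Fads1* lie close to the line.

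Other genes of the same pathways were read from 4 further lists. The calls with the block that follow were not kept on the authors' normalized values, where the same fit called 0 of 15888 probes. A fit that calls no probe cannot tell these genes from others. The authors' own limma analysis did report significantly altered genes. Of 4 measured genes of SREBP processing (8 listed), 0 passed in either fit, and the median was -0.31. *Scap*, which escorts SREBP to the Golgi, was at -0.38, and *Insig2*, the paralogue of *Insig1*, at -0.35. Of 4 measured genes of sterol export and release (9 listed), 0 passed, with a median of 0.035. *Abcg1*, a sterol exporter and LXR target, was at 0.28.

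Of 7 measured genes for precursor, NADPH and desaturation (9 listed), 0 passed in the unpaired fit, and 1 was higher and 1 lower with the block (against 1.65% and 1.01% of all genes). The lower gene was *Acss2*, which makes acetyl-CoA from acetate and is a target of SREBP. It read 7.93, 7.58 and 7.85 in control cells and 6.65, 6.68 and 7.03 with rIL-4, with no overlap. Its log2 fold change was -1.0 (adjusted p = 0.120 in limma, 0.00611 with the block), and -0.75 on the authors' values. *Acly*, which makes acetyl-CoA from citrate, was at 0.085. The higher gene was *Scd1*, another stearoyl-CoA desaturase, with levels from 6.84 to 7.37 without and from 7.58 to 8.19 with rIL-4.

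Of 10 measured genes of further elongation and glycerolipid steps (18 listed), 0 passed in the unpaired fit and 1 was lower with the block (against 1.01% of all genes). This was *Hacd4*, a dehydratase family member of the elongation cycle, with control levels of 6.54, 6.77 and 6.66 and IL-4 levels of 5.67, 5.93 and 5.62. Its groups were well apart, with a log2 fold change of -0.91 (adjusted p = 0.120 in limma, 0.00748 with the block), and -0.51 on the authors' values. *Hacd1* and *Hacd3*, of the same family, were at 0.83 and 0.22 and did not pass. *Agpat4*, of the same list, was at -0.69 and -0.57 on the authors' values. It did not pass either (adjusted p = 0.338 in limma, 0.0644 with the block).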

How the data were processed

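RNA of BMDCs (3 control and 3 IL-4 cultures) was read on Illumina MouseWG-6 arrays. The authors deposited an intensity for every bead type (45281 probes), not yet normalized, and a detection p-value beside it. A second deposited table held 19293 probes as log2 values, which the authors had variance-stabilized and normalized by robust splines with lumi (version not given in the sources used here).

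From the intensities and detection p-values, neqc of limma 3.58.1 (R 4.3.3, offset 16) gave background-corrected, quantile-normalized log2 levels. Probes were fitted with lmFit and eBayes, without and with the replicate number as a block, with two-sided p-values and Benjamini-Hochberg adjustment across the 16071 probes detected (p under 0.05) on at least 3 arrays. The labels do not state that a number stands for a mouse. Arrays of the same number were taken as a pair because their deviations from the group means correlated at 0.29, 0.55 and 0.62, where other control and IL-4 arrays gave -0.55 to 0.096. Median raw signals ran from 83.8 to 121, and 14934 to 17185 probes were detected per array. The platform annotation named no single gene for 2471 tested probes.

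The members and lists were chosen with earlier results of these data known. Values on every array are given for the regulators and for genes chosen by their brightest probe. These had an unadjusted p under 0.05 in either fit, or a log2 size over 0.5. *Idi1*, *Acss2*, *Hacd4* and the replicate 2 pattern of *Dgat2* were added after their values were seen. The fits were run on simulated arrays with known changes, which checks the code only. That simulation held no difference in cell types between replicates. Alternatives covered the block, both normalizations, the background correction, an offset of 50, the detection filter (p under 0.01, or none), an intensity trend, the mean over a gene's probes and each array or pair left out. Plots used Python 3.11.15 with matplotlib 3.10.9.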

Additional observations from a re-analysis of the deposited data

How the results depend on the processing

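Under 21 alternatives, a member gene passed the test in 2. Leaving out single arrays or pairs gave 0 to 7 changed genes: 1 without IL-4 replicate 2 (*Dhcr7*, 1.27, adjusted p = 0.0405 in limma) and 7 without both replicate 2 arrays in the fit with the replicate block, which was added after the data were seen. In the planned unpaired fit without replicate 2 there were 0, and *Dhcr7* had an adjusted p of 0.0502 in limma. The replicate block on all arrays left the count at 0 and changed no call of a member gene.

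The median of the cholesterol genes, 0.17, was 0.093 on the authors' normalized values with or without the block and 0.089 without background correction, and 0.046 to 0.26 with single arrays or pairs left out (lowest without control replicate 1, highest without control replicate 3). That of the fatty acid and glycerolipid genes, -0.015, was 0.049 with the mean over a gene's probes and -0.064 to 0.12 with arrays or pairs left out (highest without control replicate 2, and 0.082 without IL-4 replicate 1). The cause was not tested.

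The sign of 13 genes that passed no test turned under some alternative. *Lpin1* was at -0.0057 on the authors' values with or without the block and at -1.8e-04 without background correction, and by the mean over probes *Srebf2* was at 0.032 and *Elovl1* at 0.11. With arrays or pairs left out, the log2 fold change ran from -0.21 to 0.24 for *Mvk*, -0.11 to 0.33 for *Fdps*, -0.17 to 0.45 for *Hsd17b7*, -0.0018 to 0.15 for *Ebp*, -0.15 to 0.23 for *Insig1* and -0.33 to 0.16 for *Srebf2*. It ran from -0.31 to 0.12 for *Fasn*, -0.13 to 0.22 for *Elovl5*, -0.12 to 0.30 for *Elovl6*, -0.33 to 0.19 for *Acsl3*, -0.14 to 0.17 for *Lpin1* and -0.65 to 0.25 for *Dgat2*. The genes called in the blocked fit without replicate 2 kept their sign in every alternative that gave them a value. For *Sqle* this was read from the brighter probe or the mean of its probes, although only the dimmer probe was called. The alternatives reuse the same arrays, and the calls came from a fit added after the data were seen, so the kept signs add no support. With 3 arrays a group, *Mvk*, *Tm7sf2*, *Dhcr7*, *Srebf1* and other dim probes lay near background, where the size of a difference is least certain.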
